A study of Mus musculus with 2 samples.

Results

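Nanog, Sox2, Zfp42, Dppa3, Dppa4 and Spp1 are 6 genes transcribed in undifferentiated mouse embryonic stem cells, and their transcript signals were compared between EB cells at day 4 and ES cells at day 0. The genes were chosen by name, and a probe was assigned to a gene through the zero-padded NCBI Gene number inside its identifier. This gave 9 probes of the 6 genes, of 9796 probes of 8102 genes that could be named on an array of 46643 probes. Nanog had 3 probes, Dppa4 had 2, and each of the other 4 genes had 1.

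The EB group was 1 sample of mouse EB cells at day 4, and the ES group was 1 sample of mouse ES cells at day 0. In stem cell work these abbreviations usually stand for embryoid bodies, aggregates in which the cells differentiate, and for embryonic stem cells. The labels do not give a strain, cell line, culture medium, differentiation agent or use of feeder cells for either sample, nor the number of cultures behind each RNA. Total RNA of each sample was hybridised to 1 array, both on the same bead chip at different positions, so the sample, its culture and the array position cannot be told apart. The number of arrays limits the precision. No test or p-value was possible with 1 sample per group, and the errors given below cover the spread between beads of a probe on an array.

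NANOG and SOX2 are transcription factors at the core of the pluripotency network, where SOX2 binds DNA together with OCT4, the product of Pou5f1, and they act on one another's genes and on many genes of the undifferentiated state. Zfp42, which encodes REX1, Dppa3 and Dppa4 are used as markers of that state, and Zfp42 is among the genes that mouse ES cells lose early when they leave it. Spp1 encodes osteopontin, a secreted phosphoprotein that is also made by bone cells, macrophages and many epithelia.

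Signals are quantile-normalized intensities. The signal floor, 230.0, is the lowest normalized signal with a detection score above 0.99 on the EB array. A gene was taken by its probe with the highest mean log2 signal, and counted as lower or higher where the log2 difference, EB minus ES, was at least 1 in size and the signal reached the floor in at least 1 sample. Where the dimmer signal lay under the floor, the fold is given against the floor as "at least". A signal under the floor does not show that a transcript was absent. Signals of different probes do not measure relative transcript amounts of different genes. In bulk RNA, fewer cells that express a gene and less RNA per cell cannot be told apart.

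All 6 genes were lower in EB than in ES cells by the 2-fold rule, and 5 of them, all except Sox2, were lower by more than 4-fold. Over all 3867 named genes that reached the floor, 5.35% were lower by 2-fold and 1.03% by 4-fold, and 3.72% were higher by 2-fold. The median log2 difference of the 6 genes was -3.72, against 0.06 over all named genes at the floor. With signals raised to the floor these medians were -3.45 and 0.05. Each of the 9 probes had a negative difference, from -4.72 to -1.27, with bead-level standard errors of 0.08 to 0.18. Among the 3867 named genes at the floor, 1720 had a negative difference. The genes were picked with earlier results of these data known, so their shared direction is a description of these 2 arrays.

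**Figure D1:**
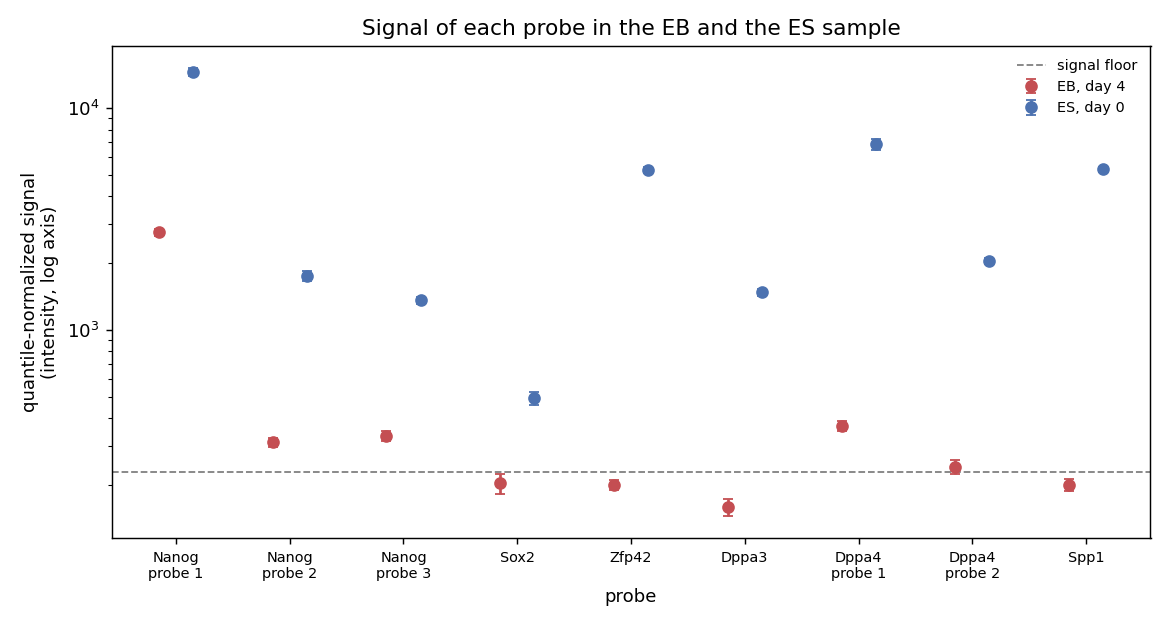
Quantile-normalized signal (intensity, log axis) of each of the 9 probes in the EB sample (red) and the ES sample (blue), with bars of 1 bead-level standard error and the signal floor of 230.0 as a dashed line; probes of a gene are numbered from the brightest. Every ES signal lies above the floor, while the EB signals of Sox2, Zfp42, Dppa3 and Spp1 lie under it and that of the first Nanog probe stands at 2760.2.

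Nanog (Gene number 71950), the homeodomain factor, was measured by 3 probes. The brightest, scl071950.6_303-S, had a signal of 2760.2 in EB and 14529.8 in ES cells, where the deposited signals before normalization were 2785 and 14206. Its log2 difference was -2.40 with a bead-level standard error of 0.08, which is 5.26-fold lower. The second probe, scl071950.2_65-S, had 312.3 in EB and 1754 in ES cells, a log2 difference of -2.49 ± 0.10 (bead-level standard error). The dimmest, scl0071950.1_3-S, had 332.4 in EB and 1361 in ES cells, a log2 difference of -2.03 ± 0.09.

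The Nanog signal was thus lower in EB cells by each probe, and it remained above the floor there by each probe. The EB signal of the brightest probe was 12.0 times the floor, the highest such ratio among the 9 probes, while those of the other 2 probes were 1.36 and 1.45 times the floor. The first and second probes differed by 0.09 on the log2 scale with a bead-level standard error of 0.13. The first and the dimmest differed by -0.36 with a standard error of 0.12, a gap of 3.04 such errors. Over 447 named genes with at least 2 probes at the floor, the differences of the 2 brightest probes of a gene differed from one another with a standard deviation of 0.39, and the widest gap between Nanog probes was -0.46. In the series value table, processed by the authors, the probes agreed less. There the first, second and dimmest probes gave -2.48, -3.60 and -2.98, and the first and second differed by 1.13.

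The sequence before the Nanog start is shown because it holds the composite element at which SOX2 and OCT4 are known to bind together in the mouse Nanog promoter. The 250 bases before the first annotated start (RefSeq, GRCm38.p6, chr6:122707239-122707488, plus strand) are given in the direction of transcription, with the match in capitals.
Nanog: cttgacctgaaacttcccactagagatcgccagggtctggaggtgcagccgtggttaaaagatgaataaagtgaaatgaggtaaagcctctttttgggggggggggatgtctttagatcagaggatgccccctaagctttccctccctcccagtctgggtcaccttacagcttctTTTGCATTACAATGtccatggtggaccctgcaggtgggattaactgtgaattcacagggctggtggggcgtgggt
The motif searched was CATTGTNATGCAAA on both strands, a SOX core, a free base and the first 7 letters of the octamer ATGCAAAT. The match lay on the strand opposite to the gene, at positions -75 to -62 counted from the first start and -151 to -138 from the second annotated start. Of 32851 such windows of 27025 mouse genes, 2 (0.00609%) held the motif, and both were the Nanog windows, which overlap and share the match. The element was already known in this promoter, so its match there was not an independent result. The SOX core CATTGT alone, which overlaps the composite match, was found in 10.7% of all windows. These matches describe the sequence, and no binding was measured.

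Sox2 (Gene number 20674), the HMG-box partner of OCT4, had 1 probe, scl020674.7_60-S. Its signal was 203.9 in EB and 493.0 in ES cells, with 201.6 and 496.5 before normalization. The log2 difference was -1.27 with a bead-level standard error of 0.18, the largest error among the 9 probes, from 24 beads in EB and 19 in ES. The EB signal lay under the floor, with a detection score of 0.961, so Sox2 was at least 2.14-fold lower. Because the ES signal was 2.14 times the floor, a log2 difference of -1.10 was the most that the probe could show above it. The size of the Sox2 difference was therefore bounded from one side only, and a smaller fold than that of the other 5 genes is not shown. The window before the Sox2 start held none of the motifs searched.

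Zfp42 (Gene number 22702) encodes REX1, a zinc finger protein of the YY1 family. Its probe scl022702.4_3-S had a signal of 199.8 in EB and 5248 in ES cells, with 197.8 and 5133 before normalization. The EB signal lay under the floor, with a detection score just above 0.95, so Zfp42 was at least 22.8-fold lower, and the measured log2 difference was -4.72 ± 0.09 (bead-level standard error). Its relative Yy1, a broadly expressed regulator, was under the floor in both samples with signals of 181.8 in EB and 163.5 in ES cells.

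The Zfp42 window is shown for its octamer, the site class bound by OCT4, which is known to act on the mouse Rex1 promoter. The 250 bases before its annotated start (RefSeq, GRCm38.p6, chr8:43307010-43307259, minus strand) are given in the direction of transcription.
Zfp42: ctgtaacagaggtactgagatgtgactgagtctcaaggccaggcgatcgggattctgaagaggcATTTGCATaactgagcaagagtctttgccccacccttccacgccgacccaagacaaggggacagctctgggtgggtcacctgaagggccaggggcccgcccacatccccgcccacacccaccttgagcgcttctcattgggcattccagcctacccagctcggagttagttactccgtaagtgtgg
The capitals mark the octamer, searched as ATGCAAAT on both strands and found here as its reverse complement at positions -186 to -179 from the start. The octamer was in 1.60% of all windows. The window held no SOX core.

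**Figure D2:**
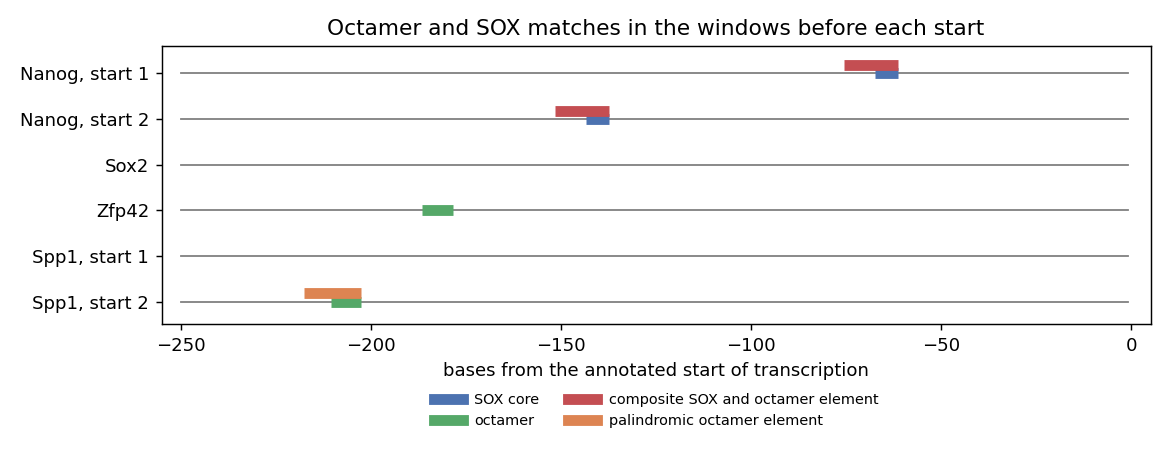
Position of each motif match, in bases from the annotated start of transcription, in the 6 windows of 250 bases before the starts of Nanog, Sox2, Zfp42 and Spp1. The composite match lies in both Nanog windows, an octamer in the Zfp42 window, and the palindromic element with its octamer in the window of the second Spp1 start, while the Sox2 and first Spp1 windows are empty.

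Dppa3 (Gene number 73708) encodes STELLA, a maternal protein that protects DNA methylation in the mouse zygote and is a marker of primordial germ cells. Its probe scl073708.2_25-S had a signal of 159.2 in EB and 1476 in ES cells, with 159.4 and 1456 before normalization. The EB signal had a detection score of 0.535 and was the lowest of the 9 probes relative to the floor, at 0.692 times it. Dppa3 was at least 6.42-fold lower, and its measured log2 difference was -3.21 ± 0.14 (bead-level standard error).

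Dppa4 (Gene number 73693) encodes a nuclear protein with a SAP domain that works together with DPPA2 at chromatin. The brighter of its 2 probes, scl073693.7_256-S, had a signal of 368.6 in EB and 6866 in ES cells, a log2 difference of -4.22 ± 0.11 (bead-level standard error), or 18.6-fold lower. The second probe, scl0073693.1_124-S, had 242.0 in EB and 2042 in ES cells, a log2 difference of -3.08 ± 0.11, or 8.44-fold lower. Both EB signals stood over the floor, by 1.60 and 1.05 times. The probes differed by -1.14 on the log2 scale, which is 7.43 times the bead-level standard error of 0.15. Over the 9 named genes, Nanog and Dppa4 included, whose brightest probe was below -2 and that had a second probe at the floor, the second probe was less negative by a median of 1.30, with a standard deviation of 0.66 between probes, so a gap of this size was common among them. The second probe could show a log2 difference of at most -3.15 above the floor and the first one of at most -4.90. In the series value table the 2 probes gave -5.17 and -4.96 and differed by -0.21.

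Dppa2, which lies next to Dppa4 on chromosome 16 and encodes its partner, was the other DPPA gene that could be named. Its brighter probe gave 148.1 in EB and 593.6 in ES cells, at least 2.58-fold lower, and its second probe was under the floor in both samples.

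Spp1 (Gene number 20750) had 1 probe, scl0020750.1_112-S, with a signal of 200.4 in EB and 5285 in ES cells, and with 198.3 and 5170 before normalization. The EB signal lay under the floor, with a detection score of 0.951, so Spp1 was at least 23.0-fold lower, and the measured log2 difference was -4.72 ± 0.09 (bead-level standard error). The bounds of Spp1 and Zfp42 were -0.01 apart on the log2 scale with a bead-level standard error of 0.06.

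A stretch inside the Spp1 gene is shown because it holds the palindromic octamer element through which OCT4 is known to act on the mouse gene. It starts with 20 bases before the element and ends 20 bases after it (RefSeq, GRCm38.p6, chr5:104435955-104436009, plus strand), and the element begins 864 bases after the first annotated start.
Spp1: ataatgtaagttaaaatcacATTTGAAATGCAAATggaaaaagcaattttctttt
The capitals mark ATTTGAAATGCAAAT, searched on both strands, which contains the octamer. In the windows of 250 bases it was found at positions -217 to -203 from the second annotated Spp1 start and in 1 further window, that of the olfactory receptor gene Olfr1382, so 0.00609% of all windows held it. The letters searched were those of the known Spp1 element, so the Spp1 match was set in advance. The share describes how rare these exact letters are. The window before the first Spp1 start held none of the motifs. Promoter windows were matched for 4 of the 6 genes, and Dppa3 and Dppa4 were not among them.

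With signals raised to the floor, the log2 differences lay between -4.52 for Spp1 and -1.10 for Sox2. Those of Spp1, Zfp42, Dppa3 and Sox2 were bounds set by their ES signal, so these 4 could not be ordered among themselves, nor Dppa3 or Sox2 against Dppa4 or Sox2 against Nanog. The bound of Zfp42 minus the measured difference of Dppa4 was -0.29, a gap of 2.52 bead-level standard errors. The bound of Dppa3 minus the measured difference of Nanog was also -0.29, a gap of 3.13 such errors. These errors leave out any error of the floor itself and the spread between probes of a gene. Over 447 named genes, the differences of 2 probes of a gene differed with a standard deviation of 0.39, more than either gap. These 2 gaps therefore do not settle the order of the genes. By the second Nanog probe, at -2.49, the gap to Dppa3 was smaller. Dppa4 and Nanog were the 2 genes measured above the floor in both samples, with -4.22 and -2.40 by their brightest probes. By the dimmer Dppa4 probe, at -3.08, the gap to Nanog was smaller.

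Few named genes went from a bright ES signal to one under the floor in EB cells. Of 360 named genes with a signal of at least 5000 in ES, 2 were under the floor in EB, and these were Spp1 and Zfp42. This count depends on the floor. Their EB signals, 200.4 and 199.8, lay above the floor of 199.45 set at a detection score of 0.95. Klf2, with 9100.0 in ES, was not counted because its EB signal of 251.6 lay just over 230.0. Of 1556 with at least 1000 in ES, 9 were under the floor in EB, and Dppa3, Spp1 and Zfp42 were 3 of these. The other 6 were Aurkc, Dnajc6, Jam2, Klf4, Krt42 and Pla2g1b. In the other direction, 5 of 1562 genes with at least 1000 in EB were under the floor in ES.

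**Figure D3:**
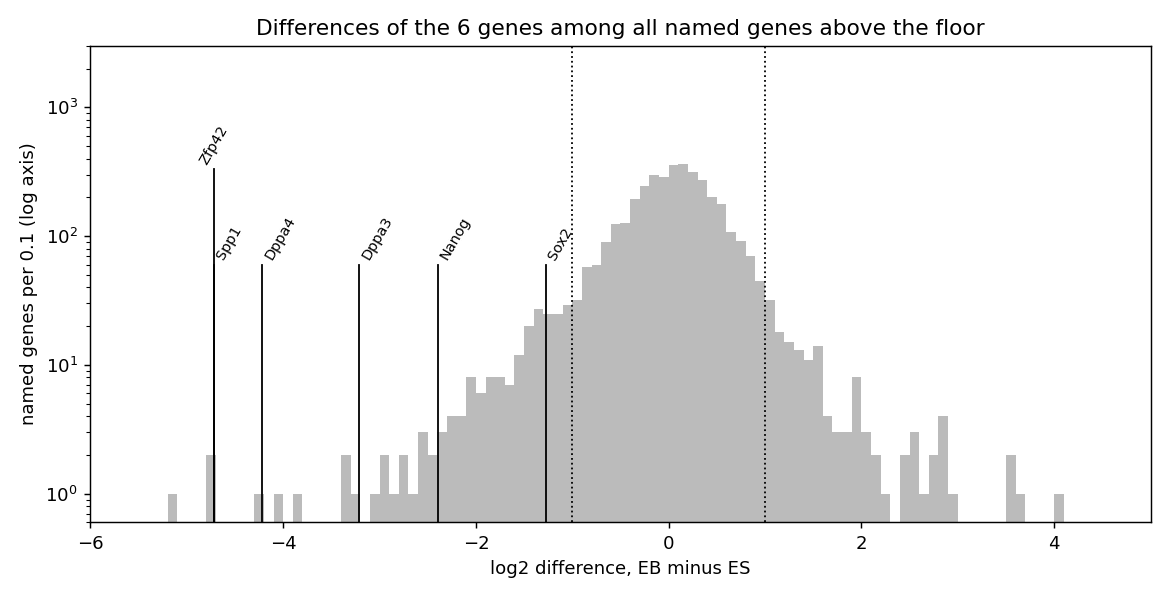
Number of named genes per 0.1 of log2 difference, EB minus ES (log axis), for the 3867 genes at the floor, with the 6 genes marked by black lines and the 2-fold limits by dotted lines. All 6 lie left of the lower limit, Sox2 at -1.27 near it and Spp1 and Zfp42 together at -4.72.

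Outside the 6 genes, the named gene with the most similar pair of array signals was sought for each of them, as the smallest distance over the 2 arrays in log2 signal raised to the floor. This likeness is one of probe signals and not of transcript amounts. For Zfp42 and for Spp1 this was Lefty1, an antagonist of Nodal, with signals of 270.7 in EB and 4572 in ES cells, at distances of 0.31 and 0.31. For Dppa3 it was Klf4, a Krüppel-like pluripotency factor, with 226.2 in EB and 1349 in ES cells at a distance of 0.13. Both EB signals were under the floor, so this distance rests on the ES signals, and 7 genes lay within 0.5 of Dppa3. For Nanog it was Ckb, the brain-type creatine kinase, with 2077 in EB and 12430.5 in ES cells, at 0.47. For Dppa4 it was Klf2, with 251.6 in EB and 9100.0 in ES cells, at 0.68. For Sox2 it was the copine gene Cpne9, at a distance of 0.01, but 133 genes lay within 0.5 of Sox2, so its pair of signals was common. Likeness over 2 arrays rests on a single difference and a level.

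Other genes of the pluripotency network differed in size. Of 31 listed, 9 could be named and 8 reached the floor, all 8 with a negative difference, of which 5 were lower by 2-fold and 0 higher, with a median of -1.67. Over all 3867 named genes at the floor, 1720 had a negative difference. The largest were those of Klf2 (36.2-fold lower), Klf5 (474.3 in EB and 3792 in ES cells) and Klf4 (at least 5.87-fold lower by its brightest probe). Pou5f1 could not be named on the array and was not analysed here. Of 7 named genes for NANOG protein partners and the NuRD complex, 7 reached the floor, 0 were lower by 2-fold and 1 was higher, with a median of 0.14. The higher one was Arid3b, an ARID-domain DNA-binding protein, with 2681 in EB and 964.9 in ES cells.

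Among SOX genes other than Sox2, 7 of 19 were named and 4 reached the floor. Sox15, which is also transcribed in mouse ES cells, had 140.6 in EB and 392.1 in ES cells and was at least 1.70-fold lower against the floor, with a measured log2 difference of -1.48. Sox21 had a difference of -0.93, Sox11 of 0.90 and Sox4 of 0.37, all under the 2-fold rule. Of 5 named genes of DNA methylation and demethylation, the setting in which STELLA acts, 4 reached the floor and 0 passed the rule in either direction, with a median of 0.15. The brightest was Uhrf1, which guides maintenance methylation, with 8893 in EB and 7280.1 in ES cells. Of 4 named osteopontin receptor genes, 1 reached the floor, the integrin chain Itgb5, with 832.2 in EB and 431.9 in ES cells and a log2 difference of 0.95. Itgav, Itga4 and Cd44 were under the floor in both samples. The other genes of the phosphoprotein family of Spp1 (Ibsp, Dmp1, Dspp and Mepe) could not be named and were not analysed here.

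Along the chromosomes, Dppa3 and Nanog were neighbours on chromosome 6, with 4 entries of the RefSeq gene table between them, a small nucleolar RNA and 3 pseudogenes. Both were lower in EB cells. The nearest other named gene within 6 entries of Nanog, C3ar1, was under the floor in both samples, with 153.9 in EB and 132.0 in ES cells. The named neighbours of Sox2 (Sox2ot) and Zfp42 (Adam26a and Adam34) were also under the floor in both samples, as were Morc1 and Trat1 beyond Dppa2. Zfp33b, the named neighbour of Spp1, had 241.4 in EB and 283.5 in ES cells, a log2 difference of -0.23. The table also lists pseudogenes named after Nanog (2), Zfp42 (1) and Dppa3 (1). Probe sequences were not used here, and whether these copies contribute to the signals was not tested.

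Markers of other cells that can transcribe some of the 6 genes were examined. Of 8 named macrophage markers, 0 were above the floor in EB and 1 in ES (Cd68, 158.3 in EB and 344.4 in ES cells), with Csf1r, Lyz2, Itgam and Ptprc among those under the floor in both. The summed signal of these markers, background included, was 1275 in EB and 1434 in ES cells. Of 3 named osteoblast markers, Bglap and Runx2 were under the floor in both samples, and Alpl, an alkaline phosphatase that ES cells also make, was 2.56-fold lower with 825.6 in EB and 2113 in ES cells, so that the sum was 1147 in EB and 2433 in ES cells. Of 4 named neural ectoderm markers, Nes alone was above the floor (415.8 in EB and 414.9 in ES cells), Pax6 and Olig2 were among those under it in both samples, and the sum was 842.2 in EB and 893.3 in ES cells. The 1 named germ cell marker, Nanos3, was under the floor in both samples, at 140.3 in EB and 171.2 in ES cells. Of 9 named fibroblast markers, 3 were above the floor in each sample, among them Col1a1 (1007 in EB and 2602 in ES cells) and Fbln2 (2205 in EB and 365.2 in ES cells), while Col1a2, Col3a1, Dcn and Postn were under it in both, and the sums were 4350 in EB and 4345 in ES cells. The part of these cells in the results was not tested.

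The named primitive streak and mesoderm markers had the opposite direction to the 6 genes. The marker lists were chosen with earlier results of these data known, so this direction is a description of these 2 arrays. Over all 3867 named genes at the floor, 3.72% were higher and 5.35% lower by 2-fold. Of 4 named primitive streak and mesoderm markers, 4 were higher in EB cells, with a median of 2.84 and led by Lhx1, at least 9.16-fold higher. The summed signal of these 4 was 6513 in EB and 917.2 in ES cells. Of 2 named primitive and visceral endoderm markers, Gata4 was at least 1.97-fold higher and Dab2 had a difference of 0.46. Of 5 named trophoblast markers, 4 reached the floor, of which 3 were higher (Eomes, Plac1 and Gata3) and 1 was lower (Tfap2c, 5.42-fold). Eomes, by the same probe, was also 1 of the 4 primitive streak and mesoderm markers.

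**Figure D4:**
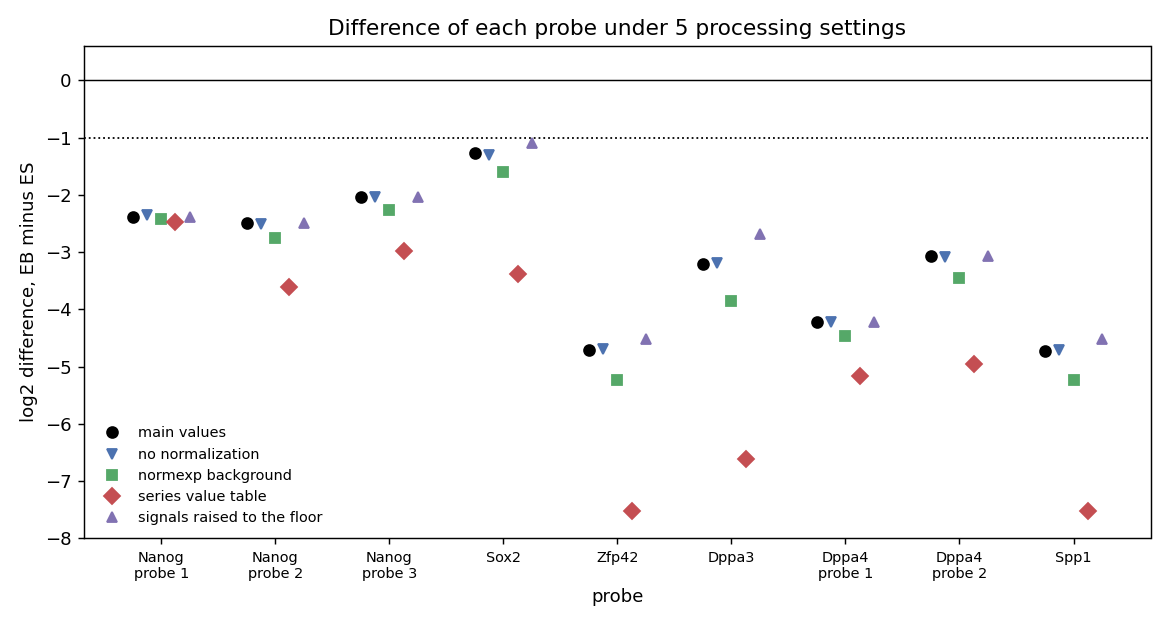
Log2 difference, EB minus ES, of each of the 9 probes under 5 settings, with a dotted line at the 2-fold limit. All points lie below that limit, the first Nanog probe stays between -2.48 and -2.35, and the series value table gives the largest differences, down to -7.53 for Zfp42.

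Normexp background correction and the series value table moved the differences more for genes whose EB signal lay near or under the floor than for the brightest Nanog probe, while leaving out normalization moved each probe by less than its bead-level standard error. The brightest Nanog probe, well above the floor in both samples, had a log2 difference of -2.35 without normalization, -2.42 after normexp background correction and -2.48 in the series value table. For Zfp42 the same 3 settings gave -4.70, -5.23 and -7.53, and for Spp1 they gave -4.70, -5.23 and -7.52. For Dppa3 they gave -3.19, -3.85 and -6.62, and for Sox2 -1.30, -1.60 and -3.38. The signals behind the last values were 29.8 in EB and 310.4 in ES cells for Sox2, and 13.1 in EB and 1293 in ES cells for Dppa3. These are point values from EB signals under the floor for Zfp42, Spp1, Dppa3 and Sox2, whose folds are known only as the bounds given above. The settings moved the size and not the direction of the differences.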

How the data were processed

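One EB sample and 1 ES sample were each hybridised to 1 bead array. Per the file headers, the deposited intensity of a probe is a bead mean from BeadStudio 2.3.41 where normalization and error model were set to none. The submitters' processing notes also name RMA and limma, without a role. The series value table holds intensity values processed by the authors in a way not stated, and served as an alternative. Its median over all probes was 16.7 in EB and 16.7 in ES. There the EB values of the 3 Nanog probes were 2577.6, 129.4 and 149.6, against quantile-normalized signals of 2760.2, 312.3 and 332.4. Its values for dim EB signals were thus far lower than the signals used here. The deposited detection score was found in the EB file and not in the ES file. The floor of the EB array was therefore applied to both samples after quantile normalization, and calls against the floor in ES rest on it. The median deposited signal was 173.3 in EB and 173.9 in ES, from a median of 37 and 38 beads.

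The deposited bead spread fell with bead number with a slope on log scales of -0.47 in EB and -0.44 in ES at signals of at least 1000, close to the -0.5 of a standard error, and was used as one. Background was not subtracted. Signals of both arrays were quantile normalized and log2-transformed (limma 3.58.1 in R 4.3.3; Python 3.11.15 for the rest). Unsubtracted background shrinks differences of dim probes. The calculation was tested on simulated data, with changes placed in probes of a geometric mean signal above 1000. Dimmer probes and signals under the floor were not covered by that test. Gene numbers of at least 10000 were named through a RefSeq table of assembly GRCm38.p6, where 9796 of 11857 numbered probes (82.6%) matched. For the array's own genome build, the sources used here give no name. Other genes were named by rule: up to 3 past 2-fold per list or else its brightest, the nearest pattern per gene, and chromosome neighbours within 6 entries. Further list members were named as examples after their values were seen, and some are not reported here. The genes, the 16 lists and the settings were chosen with earlier results of these data known. Normexp (offset 50), no normalization, median scaling, other floors, probe means and other fold limits were run as alternatives.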

Additional observations from a re-analysis of the deposited data

How the results depend on the processing

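The count of 6 genes lower by 2-fold was the same under 8 of 9 alternatives and was 5 under the 4-fold limit, which Sox2 did not reach. Normexp background correction moved the log2 difference of the brightest probe to -5.23 for Zfp42, -3.85 for Dppa3, -4.47 for Dppa4 and -5.23 for Spp1. The series value table gave -3.38 for Sox2, -7.53 for Zfp42, -6.62 for Dppa3, -5.17 for Dppa4 and -7.52 for Spp1, where the cause was not tested. With signals raised to the floor the values were -4.51 for Zfp42, -2.68 for Dppa3 and -4.52 for Spp1, and with a floor at a detection score of 0.95 the value was -2.89 for Dppa3. The mean over both probes of Dppa4 was -3.65. The share of named genes lower by 2-fold, 5.35% in the values reported, was 12.1% with the series value table, 12.0% with a 1.5-fold limit and 1.03% with a 4-fold limit. The other 39 of 56 such values stayed within the bead-level interval or within 1.5 times the count, and none changed direction. No paired analysis was possible because there was 1 sample per group, which also means that leaving out a sample was not an option. Signals under 230.0 limit what the array could show for Sox2, Zfp42, Dppa3 and Spp1 in EB cells.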
